A study of Mus musculus with 44 samples.

Results

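The chromatin occupancy of SMAD3 was compared with that of its paralog SMAD2 in vehicle-treated primary mouse granulosa cells of the Smad2HA/+ line. CUT&RUN peak lists made with a SMAD3 antibody (replicates 1 and 2) were set against lists made with a SMAD2 antibody (replicates 1 and 2), so 4 of the 32 peak lists among the 44 samples of the series were used. A region was the union of overlapping peaks that held a peak of both replicates. Of 32423 SMAD3 regions, 15308 (47.2%) met a SMAD2 region and are called shared, 8541 (26.3%) met no peak in either SMAD2 list and are called SMAD3-only, and the other 8574 (26.4%) met SMAD2 peaks that did not form a region and are called single-list. Of 19389 SMAD2 regions, 15350 (79.2%) were shared, 2483 (12.8%) met no peak in either SMAD3 list and are called SMAD2-only, and 1556 (8.03%) were single-list. These sizes follow from the overlap rule and are a description.

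SMAD2 and SMAD3 are the receptor-regulated SMADs of the TGFβ, activin and GDF9 branch. Activated type 1 receptors phosphorylate them, they join SMAD4 and enter the nucleus, and they bind DNA beside cell-type factors such as AP-1 and RUNX proteins. SMAD3 and SMAD4 contact short DNA elements directly, such as the CAGAC box and GC-rich variants of it, whereas the common form of SMAD2 carries an insert next to the DNA-binding hairpin that weakens this contact.

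In Smad2HA/+ mice 1 Smad2 allele carries an HA tag at its C terminus and the other is wild type, and Smad3 is untagged. The SMAD2 antibody therefore reads both SMAD2 forms, and an HA antibody in the same cells reads the tagged form alone. The mice had a mixed C57BL/6J and 129S5/SvEvBrd background, were females of 3 to 4 weeks and were primed with PMSG, a gonadotropin that drives follicle growth, and the cells were cultured before 4 h of vehicle or of mouse GDF9, an oocyte-secreted TGFβ family ligand. The cells were pooled over mice, the SMAD3 antibody is not named in the sources used here, and the study's methods call the replicates biological and pooled without saying which mice went into each, so the spread between these lists may be partly technical. The RNA libraries used beside the occupancy came from cells of another line, Smad3PA/PA, by the study's methods. In those vehicle libraries the granulosa markers Inha (9073 and 9824 normalized counts per kb of exon), Nr5a1 (385 and 415), Foxl2 (256 and 254), Amhr2 (272 and 271), Nr5a2 (179 and 176) and Esr2 (90.02 and 93.4) were present, Fshr was at 32.1 and 34.9, and Cyp19a1, the aromatase gene, was at 0.936 and 0.722. Amh, another granulosa gene, was at 0.688 and 0.531. Of 14 oocyte markers, 6 were at 0 in each library and the highest was at 10.2 and 9.88. The theca and stroma list had a median of 8.76 and 9.09, with 1 of 14 genes at 0, but Tagln (6359 and 6465), Acta2 (4347 and 4563) and Col1a1 (229 and 221) were high, and so were the epithelial keratins Krt8 (1024 and 1076) and Krt18 (806 and 842), from a list of endothelium, blood and epithelium markers with 3 and 4 of 15 genes at 0. Of 20 genes of tissues outside the ovary 12 and 13 were at 0. The part of such cells or states in the occupancy was not tested.

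The DNA under the summits is shown first for the groups of regions described below. A summit window is the midpoint of the stretch of highest signal with 50 bases to each side, read from the plus strand of GRCm38/mm10. The windows come from the highest or most different of their group that lay in an H3K27ac region, were mostly free of repeats, met no annotated untranslated exon and held the motif named. Windows picked in this way at Drg1, St3gal2, Slc3a2 and the start of Rtf2 are not printed. Capitals mark the AP-1 motif (TGANTCA) in the windows of SMAD3-only, SMAD2-only and SMAD3-higher regions, the SMAD palindrome (GTCTAGAC) in the windows near Bmper, Gtf2i and Dusp28, and the ETS motif (CCGGAAGT) in the windows near Ptar1 and Mib2. Matches to other motifs searched are left in lower case. The Gtf2i window also holds AP-1, RUNX, the GC-type SMAD element and the CAGAC box, the Bmper window NR5A, TEAD and the CAGAC box, the Rtf2 window the CAGAC box, the Cdon window a forkhead motif and the Dusp28 window a TGIF motif.
SMAD3-only, intron of Ankrd50, chr3:38463310-38463410: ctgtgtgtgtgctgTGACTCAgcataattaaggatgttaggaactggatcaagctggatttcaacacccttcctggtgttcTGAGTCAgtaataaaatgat
SMAD3-only, intron of Cdon, chr9:35467593-35467693: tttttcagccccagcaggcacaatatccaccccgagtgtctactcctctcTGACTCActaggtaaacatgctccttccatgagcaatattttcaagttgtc
SMAD2-only, intron of Rtf2, chr2:172467351-172467451: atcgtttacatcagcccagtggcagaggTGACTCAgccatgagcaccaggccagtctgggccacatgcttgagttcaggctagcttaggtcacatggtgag
SMAD2-higher, intergenic near Bmper, chr9:23157332-23157432: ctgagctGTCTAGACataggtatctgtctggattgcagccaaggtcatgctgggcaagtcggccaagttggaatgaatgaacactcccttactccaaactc
SMAD2-higher, intergenic near Gtf2i, chr5:134350874-134350974: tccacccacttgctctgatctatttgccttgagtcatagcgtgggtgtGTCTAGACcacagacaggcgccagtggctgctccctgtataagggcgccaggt
SMAD2-higher, upstream of Dusp28, chr1:92906843-92906943: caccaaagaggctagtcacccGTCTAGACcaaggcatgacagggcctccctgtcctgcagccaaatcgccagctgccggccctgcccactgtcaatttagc
SMAD2-higher, upstream of Ptar1, chr19:23687272-23687372: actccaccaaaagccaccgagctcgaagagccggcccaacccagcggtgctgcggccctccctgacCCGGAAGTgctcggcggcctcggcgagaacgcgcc
SMAD2-higher, upstream of Mib2, chr4:155669402-155669502: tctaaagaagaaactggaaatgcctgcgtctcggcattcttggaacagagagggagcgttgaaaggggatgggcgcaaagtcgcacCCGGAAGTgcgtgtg
SMAD3-higher, intron of Htr1d, chr4:136434224-136434324: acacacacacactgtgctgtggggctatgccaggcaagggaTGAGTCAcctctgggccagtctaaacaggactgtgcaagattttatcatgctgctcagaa
SMAD3-higher, intron of Rai14, chr15:10686107-10686207: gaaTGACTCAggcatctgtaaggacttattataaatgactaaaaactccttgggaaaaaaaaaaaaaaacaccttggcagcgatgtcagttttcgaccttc
The heights under these windows were as follows, in fragments at the summit (defined in the next paragraph), for replicates 1 and 2. The Ankrd50 intron had 83 and 84 fragments with SMAD3, no SMAD2 peak, and 21 and 20 with HA. The Rtf2 intron had 23 and 18 with SMAD2, no SMAD3 peak, and 15 in 1 HA list. At Gtf2i SMAD3 gave 39 and 46 and SMAD2 71 and 90, at Ptar1 SMAD3 gave 8 and 12 and SMAD2 43 and 56, and at Rai14 SMAD3 gave 71 and 108 and SMAD2 11 and 20. These windows were chosen for their height or difference, so the order of the antibodies in them follows from the choice. Dusp28, Ptar1 and Mib2 had their summits 88, 107 and 254 bp upstream of the start, and the Bmper and Gtf2i summits lay 65694 and 36164 bp upstream. The Cdon intron had 66 and 65 fragments with SMAD3 and 22 in 1 HA list. The St3gal2 window, which is not printed, had 12 and 14 with SMAD3, 33 and 26 with SMAD2, and 57 in 1 HA list. At Bmper SMAD3 gave 20 and 20 and SMAD2 48 and 36, at Dusp28 SMAD3 gave 41 and 53 and SMAD2 90 and 82, at Mib2 SMAD3 gave 38 and 32 and SMAD2 91 and 108, and at Htr1d SMAD3 gave 72 and 100 and SMAD2 9 and 16.

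The SMAD3 lists held 68414 and 65194 peaks and the SMAD2 lists 61754 and 60527 on the main chromosomes. Within a list every peak maximum was a whole multiple of 1 smallest step (tolerance 0.05 of a step), which is taken here as 1 fragment on the spike-in scale of that list. Heights are given in these fragments because the step differed between lists, from 0.0168 to 0.0404 in the deposited unit. The lowest peak had 5 fragments in each of the 4 lists, and the median peak had 13 and 15 with SMAD3 and 11 and 11 with SMAD2. A peak was therefore a small number of fragments, and a missing peak means under the caller's threshold at this depth, not an absence of the protein.

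The paralog lists met each other more often than the SMAD2 lists met themselves. With each list limited to its 60527 highest peaks, a SMAD3 list shared 54.0% and 55.1% of peaks with the other SMAD3 list, whereas a SMAD2 list shared 33.1% and 33.2% with the other SMAD2 list. Between SMAD3 and SMAD2 lists the 8 directed overlaps ran from 38.1% to 39.6%. The HA lists were made against the tag on SMAD2. They shared 49.6% to 53.3% with SMAD3 lists, 37.2% to 38.3% with SMAD2 lists and 51.2% to 51.9% with each other. The same order was seen in GDF9-treated cells, where SMAD3 with SMAD3 gave 43.5% to 45.8%, SMAD2 with SMAD2 28.6% to 28.7% and SMAD3 with SMAD2 30.9% to 35.3%. The smaller number of SMAD2 regions thus came with a lower overlap of the SMAD2 replicates, from lists of like length.

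**Figure D1:**
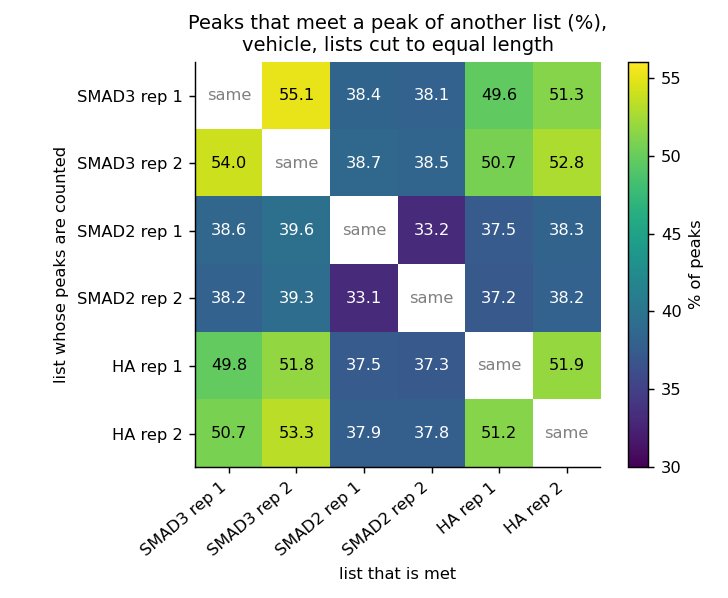
Share of the peaks of each vehicle list (rows) that met a peak of another list (columns), in percent, with each list limited to its 60527 highest peaks. The SMAD2 replicates met each other at 33.1% and 33.2%, below every SMAD3 with SMAD2 pair (38.1% to 39.6%).

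Shared regions were taller, nearer to promoters and more often in H3K27ac regions than paralog-only regions. SMAD3-only regions were more often in H3K27ac regions than SMAD2-only regions. H3K27ac, the mark of active promoters and enhancers, was read in the same cells, and its regions covered 18.3% of the genome. Its peaks were broad, with median widths of 26745.5 and 29257 bp, so meeting such a region does not place the mark at the summit itself. Of shared SMAD3 regions 78.8% met an H3K27ac region, of SMAD3-only regions 53.8% (4598 of 8541), and of SMAD2-only regions 18.0% (446 of 2483), which is close to the share of the genome covered. In vehicle-treated Smad3PA/PA cells H3K27ac peaks were narrower (median 3019 and 3288 bp) and their regions covered 4.68% of the genome. Those regions met 71.4%, 30.7% and 6.08% of the 3 classes in the same order. HA regions, made against the tag on SMAD2 and not used by the rule, covered 2.90% of the genome. They met 91.9% of shared SMAD3 regions and 92.1% of shared SMAD2 regions. They also met 38.8% of SMAD3-only regions (3313), but 4.75% of SMAD2-only regions (118).

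HA peaks in any list gave the same order. In all, 2820 SMAD3-only regions (33.0%) met no HA peak at all, while 1923 SMAD2-only regions (77.4%) met none. Of shared SMAD2 regions 2.05% met none. At the SMAD3-only regions that met an HA region, the median HA height was 21 and 21 fragments, the SMAD3 height 19 and 23, and 66.8% lay in H3K27ac. Where HA had no peak, SMAD3 height was 12 and 13 and 38.9% lay in H3K27ac. So a large part of the regions without a SMAD2 peak met HA peaks in the same cells. A smaller part of the regions with a SMAD2 peak and no SMAD3 peak did. No HA list from untagged cells was among the samples, so background of the HA antibody was not separated from tagged SMAD2.

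The paralog-only classes also lay in different places. Of shared SMAD3 regions 59.9% lay within 3 kb of a gene start, of SMAD3-only regions 24.03% and of SMAD2-only regions 16.7%. The median distance from the middle of a region to the nearest protein-coding start was 2.78 kb, 27.1 kb and 81.2 kb in that order. Summits of SMAD3-only regions fell in introns in 44.7% and between genes in 32.8%, and those of SMAD2-only regions fell in introns in 34.7% and between genes in 51.2%. The GC content in 100 bases to each side of the summit was 54.0% at shared SMAD3 regions against 45.5% in windows 1 kb away, 45.7% against 43.8% at SMAD3-only regions, and 40.2% against 40.3% at SMAD2-only regions. Repeat-masked sequence made up 13.9%, 18.1% and 31.9% of these summit windows, and the X chromosome held 2.26%, 3.70% and 7.85% of the regions. At SMAD2-only summits neither GC nor repeat content (32.0% in the windows 1 kb away) stood apart from the surroundings.

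Height differed between the classes, so they were also compared at like height. Median heights were 31 and 37 fragments at shared SMAD3 regions, 15 and 18 at SMAD3-only, 21 and 21 at shared SMAD2 and 10 and 10 at SMAD2-only regions. Regions were put into 5 bins by the mean percentile of their height within their own lists. In the top bin (percentiles 90 to 100) 85.9% of 5499 shared SMAD3 regions and 64.2% of 193 SMAD3-only regions met H3K27ac, and 99.3% against 75.6% met HA. In the bin from 50 to 70 the SMAD3 values were 69.3% against 55.0% for H3K27ac and 80.9% against 42.0% for HA. For SMAD2 in the same bin, 77.9% of shared and 19.9% of SMAD2-only regions met H3K27ac and 83.3% against 7.87% met HA. The difference was present in all 5 bins for both paralogs. Most of the SMAD2-only class lay in the bottom bin (1878 regions), where it made up 51.2% of SMAD2 regions, and 12 SMAD2-only regions lay in the top bin.

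**Figure D2:**
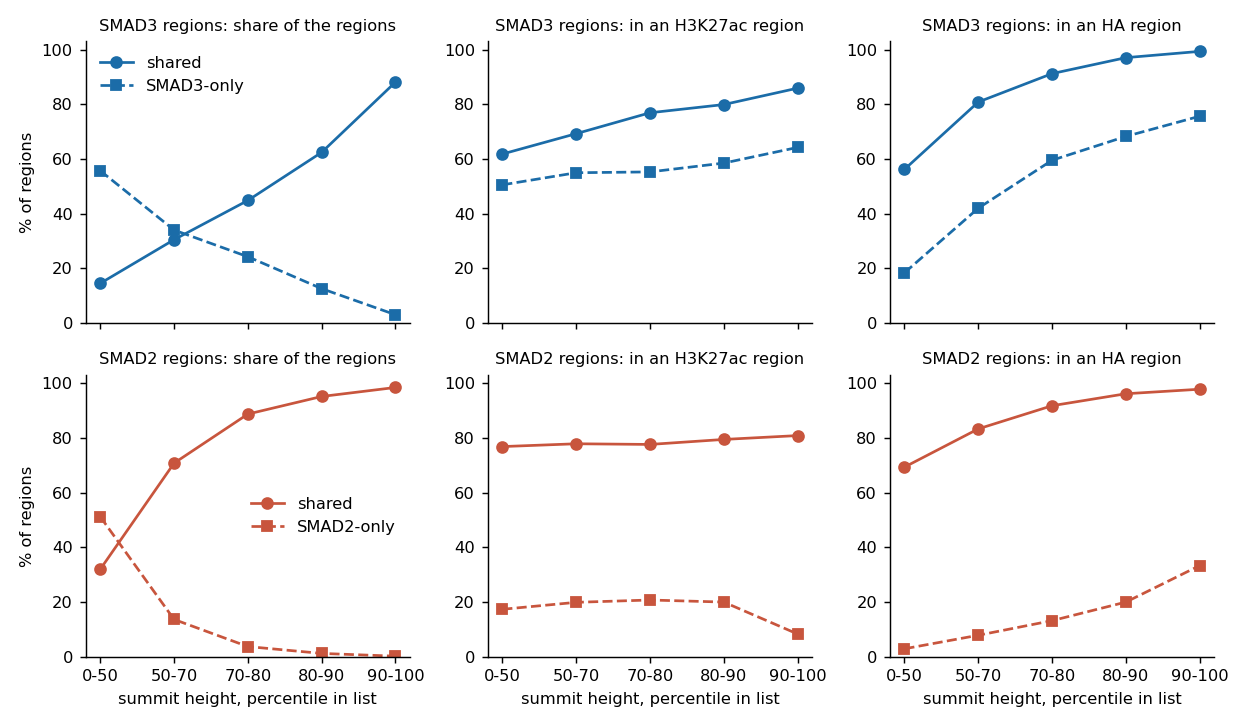
Share of regions in each class and share of each class in an H3K27ac or HA region (y axes, percent) by summit height within their own lists (x axis, percentile bins), with SMAD3 regions above and SMAD2 regions below. Shared regions lie above paralog-only regions at every height in the H3K27ac and HA panels, with the wider gap for SMAD2.

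The size of these classes depended on what counts as a peak and as overlap. With peaks of at least 10 fragments, 1253 SMAD2-only regions were left, and with the upper 50% of each list by height 767, of which 31.7% met H3K27ac and 29.3% met HA. The SMAD3-only class kept 8030 and 5874. When overlaps of at least 50% of each interval were asked for, the gap between shared and SMAD2-only regions narrowed from 61.2 to 34.7 percentage points for H3K27ac and from 87.3 to 54.1 for HA. Counting a peak in either HA list in place of an HA region narrowed the SMAD3 gap for HA from 53.1 to 30.9 points. Shared regions stayed above paralog-only regions in H3K27ac, HA and promoter share under every alternative run.

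GDF9-treated cells of the same line gave lists that the classes did not use. Of SMAD3-only regions 31.5% met a SMAD3 region of GDF9-treated cells and 68.5% a peak in either SMAD3 list, while 39.3% met a peak in either SMAD2 list. The peaks of either list covered 6.75% of the genome for SMAD3 and 6.85% for SMAD2 there. Of shared SMAD3 regions 88.2% met a SMAD3 region there and 90.9% a SMAD2 peak. Of SMAD2-only regions 5.20% (129) met a SMAD2 region of GDF9-treated cells, against 68.3% of shared SMAD2 regions, and 29.8% met a peak in either SMAD2 list. A SMAD3 peak was met by 21.9% of them. SMAD2-only regions were thus seldom found again with the same antibody in the treated cells. In vehicle-treated Smad3PA/PA cells, SMAD4 regions, which covered 0.576% of the genome, met 14.8% of shared SMAD3, 4.43% of SMAD3-only and 1.81% of SMAD2-only regions. Lists of the PA tag, which marks SMAD3 in that line, and of SMAD2 ran the other way for the paralog-only classes. PA peaks of replicates 1 and 2 met 6.21% and 5.88% of SMAD3-only and 15.8% and 8.01% of SMAD2-only regions, beside 9.91% and 10.4% of shared SMAD3 regions. SMAD2 peaks met 9.06% and 2.14% of SMAD3-only and 16.3% and 3.26% of SMAD2-only regions, beside 28.9% and 6.59% of shared ones. The PA peaks covered 2.01% and 1.30% of the genome and the SMAD2 peaks 2.07% and 0.237%. SMAD2-only regions were also wider, with a median of 2521 bp against 1845 bp for SMAD3-only regions, and wider regions meet more peaks by width alone. Peaks in these lists of that line were lower, with a median of 5 and 5 fragments for PA, 5 and 3 for SMAD2 and 5 and 4 for SMAD4.

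Whole peak lists, without any classes, were compared by the exact permutation test. The 4 vehicle lists alone cannot give a p-value under 0.333, so the 8 lists of both treatments (4 with SMAD3, 4 with SMAD2, two-sided, smallest p 0.0286) were used. Of 27 features measured per list, 16 separated the antibodies in all 8 lists, each with an exact permutation p of 0.0286 and an adjusted p of 0.0482 by Benjamini-Hochberg, 12 of them higher with SMAD3. When labels were exchanged only within a treatment the smallest possible p was 0.0556, so none could pass. The share of peaks in H3K27ac regions was 49.6% and 52.3% with SMAD3 and 39.1% and 39.7% with SMAD2 in vehicle cells, and 48.5% and 47.3% against 33.2% and 35.1% in GDF9-treated cells. The share of summits in repeat-masked sequence went the other way, with 22.8% and 21.1% against 26.6% and 24.7% in vehicle cells. The number of peaks and their median width did not separate the antibodies, and neither did the share near gene starts in the 8 lists (29.2%, 29.7%, 29.2% and 27.6% with SMAD3, 27.5%, 28.0%, 23.2% and 24.5% with SMAD2, exact permutation p = 0.0571, adjusted 0.0812).

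Short motifs were searched on both strands in 100 bases to each side of the summits. AP-1 (TGANTCA, bound by FOS and JUN proteins) was in 17.3% and 19.04% of SMAD3 summit windows and in 12.05% and 12.04% of SMAD2 windows in vehicle cells, and in 15.0%, 15.8%, 9.95% and 10.6% in GDF9-treated cells. NR5A (CAAGGTCA, the site of the granulosa factors SF-1 and LRH-1) was in 3.60% and 3.92% against 2.33% and 2.39%. RUNX (TGTGGT) was in 16.8% and 18.0% against 13.6% and 14.1%, and TEAD (GGAATG, the partner of YAP) in 13.7% and 14.2% against 11.7% and 11.7%. The SMAD palindrome (GTCTAGAC) was more frequent in the SMAD2 lists, at 0.389% and 0.413% against 0.279% and 0.285%, while CAGAC and GGCGCC were more frequent in the SMAD3 lists. Over regions found in both replicates all 3 were more frequent with SMAD2, at 39.3% against 38.8% for CAGAC, 6.85% against 5.66% for GGCGCC and 0.805% against 0.367% for the palindrome. These totals mix the classes, and shared regions made up 79.2% of SMAD2 and 47.2% of SMAD3 regions. Within each class GGCGCC was less frequent with SMAD2, at 8.29% against 8.37% in shared and 2.63% against 3.51% in single-list regions. In paralog-only regions it was in 0.644% against 2.96%. The palindrome stayed more frequent with SMAD2 in each class, at 0.840% against 0.614% in shared regions. AP-1, NR5A, RUNX, TEAD and the palindrome are among the 16 features that separated the 8 lists. The HA lists stood above both for AP-1 (20.3% and 21.3%) and below both for the palindrome (0.195% and 0.213%).

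By class, AP-1 was most frequent outside the shared regions of SMAD3. It was in 26.2% of SMAD3-only and 29.7% of single-list summit windows against 20.6% of shared ones, over 5.46% to 6.11% in windows 1 kb away, and in 24.5% of all SMAD3 regions. SMAD2-only summits had it in 9.79%, over 6.85% in their flanks. Promoters hold few AP-1 motifs, and among summits away from promoters the shares were 35.3% at shared SMAD3 regions, 28.8% at SMAD3-only and 9.82% at SMAD2-only regions. SMAD3-only regions with an HA region had AP-1 in 36.01%, and those with no HA peak in 14.8%. RUNX was in 22.6% of SMAD3-only windows over 15.1% in their flanks, and in 11.9% of SMAD2-only windows over 13.4%. The GC-type SMAD element (GGCGCC) was in 8.37% of shared SMAD3, 2.96% of SMAD3-only and 0.644% of SMAD2-only windows. The CAGAC box, a short and common run of letters, was in 39.6%, 37.3% and 31.7%, over 36.3%, 36.5% and 31.9% in the flanks. A match is a description of letters in a window, and these motifs can overlap each other and follow GC content.

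**Figure D3:**
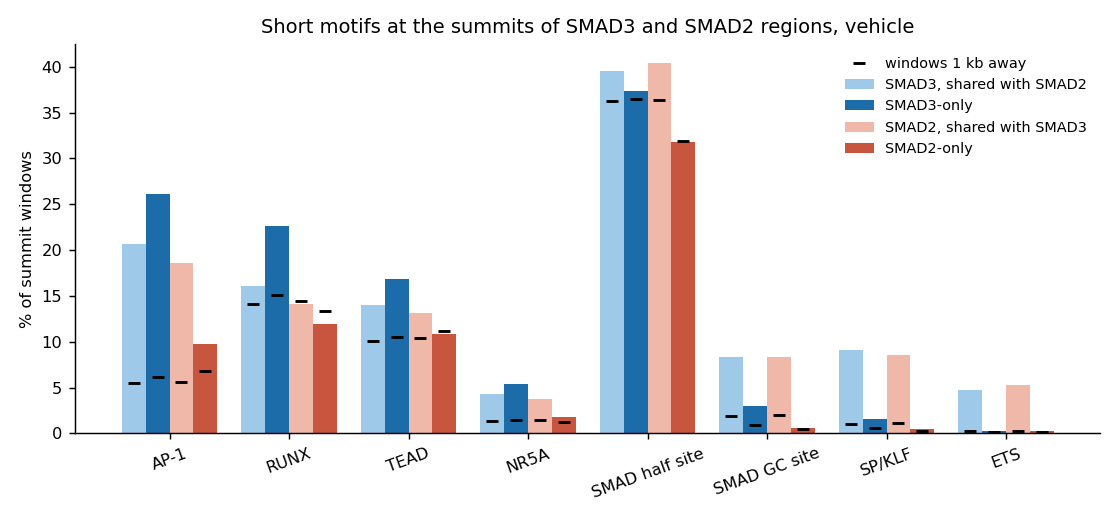
Share of summit windows (100 bases to each side, bars, in percent) that hold a motif on either strand, with the mean of windows 1 kb away as black marks and the CAGAC box as the fifth group of bars. SMAD3-only summits have AP-1 in 26.2% and SMAD2-only summits in 9.79%, while SP/KLF and ETS motifs are found mainly in shared regions.

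Relative occupancy was then tested where both paralogs were measured. Peaks were present in all 4 lists at 15135 regions, and log2 summit signal, centred on the median of each list, was compared with limma. SMAD3 was relatively higher at 1117 regions (7.38%) and SMAD2 at 1263 (8.34%), with adjusted p under 0.05. The spread between replicates, as 1 SD over all tested regions on the log2 scale, was 0.26 for SMAD3 and 0.31 for SMAD2. The median standard error of a difference was 0.26, and the median called difference 0.95 and −1.06. These calls rested on both SMAD3 lists. Without SMAD3 replicate 1 or without SMAD3 replicate 2 no region was called by limma, with the remaining list assumed to vary like the others, although 2741 and 2574 regions had an unadjusted p under 0.05. Without a SMAD2 list there were 1455 and 1516 SMAD3-higher and 1343 and 1634 SMAD2-higher calls. Total signal of a peak in place of its maximum gave 282 and 315 calls, and quantile normalization 599 and 757.

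The direction is relative to the median region. On the deposited spike-in scale SMAD3 signal was higher by 1.30 on the log2 scale at the median region. There all 1117 SMAD3-higher regions kept their sign, but 357 of 1263 SMAD2-higher regions (28.3%) stayed higher with SMAD2, and limma called 6526 regions higher with SMAD3 and 26 higher with SMAD2. Height also moved with the calls. Of 4 equal bins by mean height, the lowest had 6 regions called higher with SMAD3 and 316 with SMAD2, and the highest 766 and 452. The lists differed in their spread of heights at these regions. The 90th percentile was 4.73 and 4.89 times the 10th with SMAD3, and 3.75 and 3.75 times with SMAD2, and centring on the median leaves this spread in place. What part height or this spread had in the calls was not tested.

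In GDF9-treated cells the same regions leaned the same way. In a fit over 8 lists, 10043 regions had a peak in each list, and vehicle lists called 928 higher with SMAD3 and 1259 higher with SMAD2. In the GDF9 lists, which did not enter those calls except through the shared estimate of spread, 911 (98.2%) and 1239 (98.4%) had the same sign, against 51.8% positive and 48.2% negative over all regions. No region passed the test of a paralog-by-treatment difference by limma, and 519 had an unadjusted p under 0.05.

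**Figure D4:**
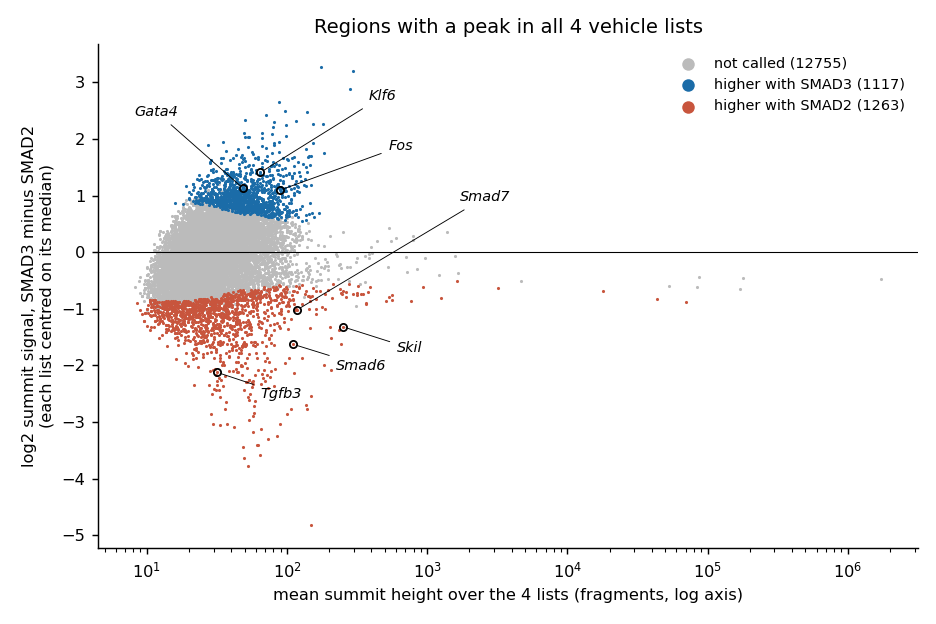
Difference of log2 summit signal, SMAD3 minus SMAD2 after centring each list, against mean height in fragments (log axis) for 15135 regions, with the 1117 called higher with SMAD3 in blue, the 1263 called higher with SMAD2 in red and named genes circled. On the spike-in scale all points shift by 1.30 toward SMAD3, and 357 of the red regions stay below 0.

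Regions relatively higher with SMAD2 lay less often in H3K27ac and nearer to gene starts than those higher with SMAD3. H3K27ac regions met 91.8% of SMAD3-higher and 67.9% of SMAD2-higher regions, against 78.8% of those not called. A 3 kb window around a gene start was met by 59.9% and 67.6%. The median distance from a region to the nearest protein-coding start was 4.44 kb and 0.925 kb. Repeat-masked sequence made up 8.27% and 20.5% of their summit windows. HA regions met 98.7% and 86.4%. Where HA was present at SMAD2-higher regions (1098), its height after the same centring lay nearer to SMAD3 than to SMAD2 in 86.2%, and its median difference was −1.04 from SMAD2 and −0.01 from SMAD3 on the log2 scale. At SMAD3-higher regions (1102) it was nearer to SMAD3 in 55.6%, with median differences of 0.58 from SMAD2 and −0.42 from SMAD3, and at regions not called in 60.6%. The HA and SMAD2 heights thus lay apart at both groups of called regions. The groups were chosen by the SMAD3 and SMAD2 signals of these lists. A list outside that choice lies away from the extremes in part because of it, and the cause was not tested.

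The sequence under these regions differed as well. At the SMAD2 summit the ETS motif was in 21.1% of SMAD2-higher windows (267 of 1263), in 2.24% of SMAD3-higher windows and in 5.23% of all 15135, over 0.248% in windows 1 kb away. The SMAD palindrome was in 4.28% of SMAD2-higher windows (54), in 0 of 1117 SMAD3-higher windows (which allows a share of up to 0.269%, from 3 counts and for counting error only) and in 0.806% of all. At SMAD3 summits it was in 46 SMAD2-higher windows and again in 0 SMAD3-higher ones. AP-1 ran the other way, with 23.6% of SMAD3-higher and 8.79% of SMAD2-higher windows at SMAD3 summits. RUNX was in 24.3% and 10.6%, TEAD in 20.1% and 9.11% and NR5A in 6.80% and 1.82%. The windows near Bmper, Gtf2i, Dusp28, Ptar1, Mib2, Htr1d and Rai14 printed above are examples of these groups.

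The 5 regions of largest difference on each side all met a 3 kb window around a gene start. Suds3, a subunit of the SIN3 corepressor complex, had a region (chr5:117113942-117118045) with 13 and 19 fragments for SMAD3, 215 and 345 for SMAD2, and 12 and 15 for HA. SMAD2 was thus 28.3-fold higher by limma after centring (log2 difference −4.82, SE 0.24, adjusted p 2.07e-06), and −3.52 on the spike-in scale. Lrr1 (chr12:69167610-69170468) had 11 and 11 against 78 and 109 with no HA peak, and Nup85, a nuclear pore protein (chr11:115563118-115565544), had 17 and 14 against 106 and 120, with 19 and 22 for HA. At these 3 regions, and at Wdr74 and BC048403, HA stood at the SMAD3 level or had no peak. On the other side stood Arrdc3, an arrestin-domain protein (chr13:80881152-80890880), with 283 and 371 fragments for SMAD3, 21 and 20 for SMAD2, and 37 and 48 for HA. Its log2 difference was 3.27 (SE 0.18) with an adjusted p of 2.51e-06 by limma. Hmgb2, a chromatin protein (chr8:57509585-57516765), had 492 and 609 against 39 and 34, and Ddx17, an RNA helicase, 147 and 171 against 12 and 20. The remaining SMAD3-higher regions of the top 5 lay near Slc39a10 and 36064 bp from Tubd1, the nearest protein-coding start. The 3 kb window met by the latter region was thus not that of Tubd1.

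The members of the pathway were read next. Of 21938 protein-coding genes, 41.1% had a shared region within 3 kb of a start, 8.81% a single-list region and no shared one, 3.82% a SMAD3-only region alone and 0.734% a SMAD2-only region alone. For the test, 9115 genes had a region in all 4 lists within 3 kb, of which 7.46% had 1 called higher with SMAD3 and 10.6% 1 called higher with SMAD2. The counts of the lists below are to be read against these shares.

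Genes of SMAD feedback and corepression, some of which SMAD signaling itself induces, carried shared regions in 18 of 19 cases. Ribosomal protein genes did so in 19 of 20, so this share was not particular to the pathway. Of the 18 feedback and corepression genes, 4 passed the test with higher SMAD2 and 2 with higher SMAD3. Skil, which encodes the corepressor SnoN, had 178 and 216 fragments with SMAD3, 261 and 342 with SMAD2, and 37 and 35 with HA (log2 difference −1.32, SE 0.17, adjusted p 0.000485 by limma). In fragments both SMAD2 lists lay above both SMAD3 lists and HA lay below all 4, but on the spike-in scale the paralogs were level there. Smad6, an inhibitory SMAD, had 90 and 64 against 137 and 150, and 33 and 38 with HA (log2 difference −1.63, adjusted p 0.00121), with a SMAD palindrome in its summit window. Smad7, the other inhibitory SMAD, had 95 and 117 against 129 and 132 (−1.02, adjusted p 0.00243) and also held the palindrome. On the spike-in scale the difference was −0.32 at Smad6, −0.01 at Skil, 0.29 at Smad7 and 0.51 at Pmepa1, the fourth gene called, so of these 4 only Smad6 stayed higher with SMAD2 by more than its standard error (0.24 in the centred fit), and Smad7 and Pmepa1 turned. Id3, an inhibitor of helix-loop-helix factors, went the other way with 158 and 216 against 49 and 51 (log2 difference 1.18, adjusted p 0.00141), as did Spsb1, which lost the call under quantile normalization (adjusted p 0.117).

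Among ligands and receptors the calls were fewer. Of 6 ligand genes tested, Tgfb3 (14 and 21 fragments with SMAD3, 41 and 51 with SMAD2, no HA peak, log2 difference −2.12, adjusted p 0.000371 by limma) and Bmp6 (35 and 26 against 62 and 50, −1.59, adjusted p 0.00309) passed with higher SMAD2, and both kept the sign on the spike-in scale. Inhba and Inha, the activin and inhibin subunit genes, had 40 and 51 against 17 and 19, and 30 and 56 against 22 and 23, and did not pass. Of 12 SMAD and receptor genes, Tgfbr1, the type 1 receptor that GDF9 and TGFβ use, passed with higher SMAD3 (111 and 183 against 41 and 41, log2 difference 1.09, adjusted p 0.00502), and HA there was 116 and 111. Smad2 itself had 40 and 51 against 21 and 24 and did not pass.

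Immediate early and AP-1 genes leaned to SMAD3. All but 1 of 20 had shared regions, and 8 of 19 tested passed with higher SMAD3 and 0 with higher SMAD2, beside 7.46% and 10.6% of all genes. The called regions were tall, and a comparison at like height was chosen after seeing the data. Of 3125 genes whose highest tested region had a mean of over 41 fragments, 17.6% were called higher with SMAD3 and 12.8% with SMAD2. Of the 13 immediate early and AP-1 genes among them 8 and 0 were. Fos had 127 and 150 fragments against 39 and 40, and 77 and 77 with HA (log2 difference 1.10, SE 0.18, adjusted p 0.00284 by limma). Jun had 92 and 138 against 31 and 35, and Klf6 89 and 121 against 26 and 22. Fosb, Fosl2, Jund, Atf3 and Myc were the others, of which Atf3 and Myc lost the call under quantile normalization (adjusted p 0.0739 and 0.0797). At all 8 genes both SMAD3 lists stood above both SMAD2 lists in fragments. This order was also that of the median tested region (31 and 38 against 21 and 21), so it does not set these genes apart. Egr1, with 91 and 114 against 49 and 56, had it too and did not pass. The median difference over the 19 genes was 0.43, against −0.02 over all genes, taking the highest region of each gene.

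Granulosa identity genes gave 5 of 11 with higher SMAD3 and 0 with higher SMAD2, and at over 41 fragments 2 of 4. The transcription factor genes Gata4 (55 and 97 fragments against 18 and 23, log2 difference 1.14, adjusted p 0.0134 by limma), Gata6 (51 and 64 against 17 and 18), Runx1 (95 and 106 against 32 and 33), Foxl2 (42 and 61 against 20 and 14) and Nr2f2 (52 and 59 against 20 and 19) passed, and Foxl2 and Nr2f2 did not under quantile normalization (adjusted p 0.0872 and 0.0740). Esr2, the estrogen receptor of granulosa cells, had 122 and 99 against 123 and 61 and did not pass. Of 11 steroid synthesis genes 2 passed with higher SMAD3 and 1 with higher SMAD2. Srd5a1, the 5α-reductase, had 106 and 107 against 269 and 248 with 100 and 116 for HA (−1.99, adjusted p 3.31e-05, and −0.68 on the spike-in scale), whereas Fdx1, the electron donor of mitochondrial P450 enzymes, had 104 and 136 against 32 and 29 (log2 difference 1.26, adjusted p 0.00189). Hsd3b1 passed with higher SMAD3 and lost the call under quantile normalization (adjusted p 0.0566).

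In the remaining lists, 2 of 10 Hippo pathway genes, the YAP targets Amotl2 and Ccn1, passed with higher SMAD3 and both lost the call under quantile normalization (adjusted p 0.0710 and 0.0553 by limma). Laminin, collagen and basal lamina genes gave 0 calls among 8 tested, as did cumulus expansion and ovulation genes among 8. In the latter Sdc4, Star, Adamts1 and Vcan had log2 differences of 0.36, 0.29, 0.39 and 0.37 that did not pass. Of 19 ribosomal protein genes 5 were higher with SMAD2 and 1 with SMAD3, so calls were also found outside signaling genes. Of the lists for other ovarian cells and other tissues, 8 genes were tested and 1, Gdf9, passed with higher SMAD3.

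**Figure D5:**
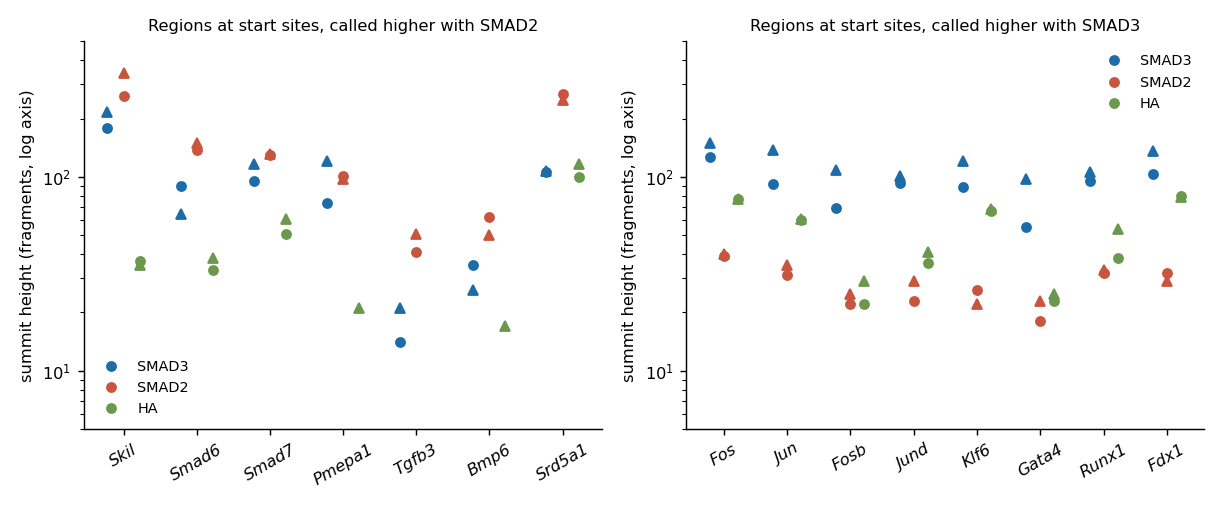
Summit height in fragments (log axis) at the start sites of list genes called higher with SMAD2 (left) or SMAD3 (right), with SMAD3 in blue, SMAD2 in red, HA in green (missing where there was no HA peak), circles for replicate 1 and triangles for replicate 2. At Skil and Smad6 the HA points lie below both antibodies and at Fos and Jun between them, and on the spike-in scale Smad7 and Pmepa1 change direction and Skil lies near 0 (−0.01).

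A SMAD3-only region alone was found at few genes of the lists, and no list gene carried a SMAD2-only region alone. The feedback genes, the immediate early and AP-1 genes and the granulosa identity genes had 0 with a SMAD3-only region alone. Cumulus expansion and ovulation genes, which act in the response of the follicle to the ovulatory signal, had 4 of 18 with a SMAD3-only region alone, beside 3.82% of all genes. Ptgs2, the prostaglandin synthase, had 24 and 28 fragments with SMAD3 at chr1:150097895-150103690, no SMAD2 peak, and 20 and 19 with HA. Has2, the hyaluronan synthase of the cumulus matrix, had 17 and 40 at chr15:56691766-56696440 and 10 and 10 with HA. Both thus had HA peaks where the SMAD2 antibody gave no peak. Ptger2, the prostaglandin receptor, had 14 and 15, and Btc, an EGF-like ligand, 15 and 13, each with a peak in 1 HA list. Ptgs2 RNA stood at 1680 and 1621 normalized counts per kb of exon and Has2 RNA at 2.98 and 4.81, so the class was not tied to 1 level of RNA.

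The other lists had 2 of 19 receptor and SMAD genes, 2 of 15 ligand and antagonist genes, 2 of 16 Hippo genes, 1 of 16 steroid synthesis and 1 of 20 laminin and collagen genes in this class. Outside the pathway it held 2 of 15 endothelium, blood and epithelium markers, 1 of 14 theca and stroma markers and 1 of 20 genes of other tissues. Amhr2, the receptor of anti-Müllerian hormone, had 19 and 22 fragments with SMAD3 at chr15:102441607-102446167 and 23 in 1 HA list. Tgfbr3, the coreceptor betaglycan, had 12 and 14. The BMP antagonists Grem1 and Nog had 10 and 15, and 14 and 21. Tead2 had 11 and 13 and Tead4 13 and 12, Lama5 10 and 19, and Cyp17a1, a theca gene with RNA at 0.475 and 0.366, 9 and 10. Tek had 12 and 12, Lgr5 11 and 22 and Syt1 8 and 13, all from the lists of other cells and tissues. These SMAD3 heights ran from 8 to 22 fragments, where the lowest peak had 5, and at Wt1, Smad1 and Ereg a peak in 1 SMAD2 list alone (9, 13 and 10 fragments) kept the gene out of the class.

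The highest regions of each class were of different kinds. Among SMAD3-only regions the highest lay 35066 bp from the start of Pard6b (chr2:168114244-168117896, 122 and 143 fragments, no HA peak), near Gpr146 (92 and 111), in an intron of Efhd1 (74 and 96), in the Ankrd50 intron printed above and at a start of Fgf1 (68 and 86, with 29 and 27 for HA). At promoters in H3K27ac the highest was Atg4d, an autophagy protease (51 and 71 with SMAD3 and 121 and 119 with HA). Among SMAD2-only regions 4 of the highest 5 lay between genes, with 80.6% to 100% repeat-masked summits, and the other was at Acad9, an acyl-CoA dehydrogenase (chr3:36064544-36067674, 34 and 38 with SMAD2, 17 and 14 with HA). Gmip, Tgds, Fam243 and Fbxo25 followed at promoters in H3K27ac, with 14 to 26 fragments. The highest shared regions were satellite-like loci: a fully repeat-masked region by Gm10800 (chr2:98666098-98667372) had 1855998 and 1877315 fragments with SMAD3, and such extreme heights were found with SMAD2, HA and H3K27ac alike. Regions over 1000 fragments numbered 17 among the 15135 tested, of which 6 were called higher with SMAD2, and without such peaks the shared part of SMAD3 regions stood at 47.2% as before. Below that height the highest shared promoter regions were at Kpna1 (641 and 808 with SMAD3, 410 and 363 with SMAD2), Aida, Sfi1, Hjurp and Skil.

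RNA levels were highest at genes with a shared region and lower at genes with a SMAD3-only or SMAD2-only region alone. The median in the 2 vehicle libraries was 120 and 121 normalized counts per kb of exon for genes with a shared region within 3 kb, 55.97 and 54.9 for single-list, 12.9 and 13.1 for SMAD3-only and 0.342 and 0.401 for SMAD2-only genes, and 0 and 0 for genes with no region. The genes numbered 9027, 1933, 839, 161 and 9978, and 94.0% of all had an RNA value. With a window of 1 kb the medians were 24.3 and 25.2 for SMAD3-only and 1.41 and 1.34 for SMAD2-only genes. Of the 839 SMAD3-only genes 48.0% had H3K27ac at a start, and of the 161 SMAD2-only genes 20.5%, against 14.8% of genes with no region. The RNA is from bulk cells of another line, so a lower level and a smaller share of expressing cells cannot be told apart, and no test was made.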

How the data were processed

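CUT&RUN reads were mapped by the authors to mm10 and to the E. coli genome with Bowtie2, uniquely mapped reads were kept, coverage was multiplied by a constant over the E. coli fragments, and peaks were called per sample with SEACR. The deposited peak lists hold the total and maximum of this spike-in scaled signal (coverage) for each peak. Whether IgG served as the caller's control is not given in the sources used here, and the IgG lists were not analysed here. RNA was aligned with STAR 2.7.11b, assigned with featureCounts 2.1.1 and processed with DESeq2 1.48.2 by the authors, per the submitters' processing notes, and the deposited RNA values are counts divided by size factors, used here as a signal per kb of exon. The 3 columns of RNA values without a header were not used.

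Peaks off the main chromosomes were left out. Maxima were divided by the smallest step of their list, and 100% of them came out whole within 0.05 of a step. Regions were unions of peaks that overlapped by at least 1 bp, gene starts and exons came from GENCODE vM21 on GRCm38, and motifs were searched on both strands with 100 bases to each side of the summit. Log2 maxima at regions with a peak in all 4 lists, centred on the list median, were compared with limma (trend, Benjamini-Hochberg, adjusted p under 0.05), and features of lists with two-sided exact permutation tests. The steps that form and class the regions and the limma fit were tested on simulated data. Python 3.11.15, pandas 2.3.3, numpy 2.4.6, scipy 1.17.1, pysam 0.24.0, matplotlib 3.10.9, bedtools 2.31.1, R 4.3.3 and limma 3.58.1 were used.

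The members and gene lists were chosen with earlier results of these data known. In each list up to 4 genes per class with the highest regions, and genes with a paralog-only region and no shared one, were to be named, with the 5 highest regions of each class, the 5 highest at promoters in H3K27ac, and the 5 largest differences each way. Genes of the lists that passed the test, and those set beside them, were named after their values were seen. The comparison of genes at like height was chosen after seeing the data. Samples were grouped by their titles. Alternatives changed the overlap, the peaks used, the promoter window, the scale, the model and the replicates. Intervals and limits cover counting error only.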

Additional observations from a re-analysis of the deposited data

Results flagged for a closer look

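One per-list feature moved in opposite directions in the 2 treatments. The forkhead motif (TGTTTAC) was in 3.06% and 3.02% of SMAD3 summit windows and in 3.07% and 3.06% of SMAD2 windows in vehicle-treated cells, a difference of means of −0.0301 percentage points with every SMAD3 list below every SMAD2 list. In GDF9-treated cells it was in 2.98% and 2.96% with SMAD3 and in 2.93% and 2.89% with SMAD2, a difference of 0.0622 points with every SMAD3 list above every SMAD2 list. The difference between treatments was not tested. Over the 8 lists the exact permutation p for the paralogs was 0.8, and 0.864 after adjustment over 27 features.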

How the results depend on the processing

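The gaps between shared and paralog-only regions kept their sign under each alternative listed here, whereas the direction of single regions did not: on the spike-in scale 357 of 1263 SMAD2-higher regions stayed higher with SMAD2. Without SMAD2 replicate 1 the order of the call counts turned, to 1455 higher with SMAD3 and 1343 higher with SMAD2. Of the recomputed values 65 moved by more than the spread of the main value or by over 1.5 times, and 41 did not. Overlaps of at least 50% gave 31.8% shared SMAD3 regions, and gaps between shared and paralog-only regions of 18.7 (SMAD3) and 34.7 (SMAD2) percentage points for H3K27ac, 41.5 and 54.1 for HA and 32.1 and 29.6 for promoters. The upper 50% of each list gave 51.4% shared, 767 SMAD2-only regions, H3K27ac gaps of 20.4 and 49.0, HA gaps of 37.8 and 66.6 and a SMAD2 promoter gap of 29.7. Lists of equal length gave 48.3% shared and a SMAD3 HA gap of 51.0. GDF9-treated lists gave a SMAD3 H3K27ac gap of 20.8, HA gaps of 54.3 and 81.6 and a SMAD3 promoter gap of 32.0. A peak in either H3K27ac list gave 23.98, a peak in either HA list 30.9 and 75.4, and a 1 kb promoter window 39.5 and 44.7, with a median RNA level of 125 at shared genes. Of 3 alternatives chosen after seeing the data, leaving out peaks over 1000 fragments moved little, peaks of at least 10 fragments gave 1253 SMAD2-only regions, a SMAD3 H3K27ac gap of 22.8, HA gaps of 49.0 and 85.8 and a SMAD2 promoter gap of 40.7, and quantile normalization gave 599 and 757 calls. Total signal gave 282 and 315 calls, the spike-in scale 6526 and 26, the 8-list model 1917 and 2246, and a limma fit without trend 777 and 1065. With 50 bases to each side of the summit AP-1 was in 17.9% of SMAD3-only windows. A single replicate per antibody gave 35.1% to 36.3% shared, 41530 to 44392 SMAD3-only and 36436 to 37706 SMAD2-only regions, H3K27ac gaps of 29.8 to 30.8 and 50.7 to 53.5, HA gaps of 56.1 to 56.5 and 71.5 to 73.3, and promoter gaps of 28.4 to 29.9 and 34.0 to 35.0. Leaving out 1 list gave 0 to 1516 SMAD3-higher and 0 to 1634 SMAD2-higher calls. The cause of these moves was not tested, except that fewer lists or peaks entered by construction.

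Replicate numbers were shared by the antibodies, and replicate differences correlated at 0.0575 over 15135 regions. At summits of few fragments a low correlation cannot show whether the replicates were paired, and the sources do not say. With the replicate block limma called 1636 and 1890 regions, against 1117 and 1263 without it. Of the 16 list features, 0 passed with the replicate block (smallest p 0.125), 0 with labels exchanged within a treatment and 0 in vehicle lists alone, where no p could pass. Summits of a few fragments limit what a missing peak can show.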
